A study of Mus musculus with 6 samples.

Results

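The 8 genes described here serve the synthesis of sterols and its feedback control: Hmgcs1, Idi1, Fdps, Fdft1, Sqle, Lss and Cyp51 encode enzymes of the route from acetyl-CoA to cholesterol, and Insig1 encodes a sensor protein that restrains it. They were chosen by symbol as well-known targets of the sterol regulatory element-binding proteins (SREBPs), and all 8 were measured among 18193 genes in all. A gene was represented by the Affymetrix probe set with the highest mean over all 6 arrays, out of 21 probe sets for the 8 genes. The tissue was retinal pigment epithelium (RPE), the cell layer behind the photoreceptors, from BALB/c mice, an albino strain whose RPE lacks melanin. The light-damaged mice, 3 arrays, were kept in the dark for 1 week and then exposed for 1.5 h to 6000 lux from white fluorescent lamps, and RPE was taken 24 h later. The dark-adapted mice, also 3 arrays, had the same week in the dark and no damaging light. The labels do not say how old the mice were or whether an array stands for 1 animal or a pool, so p-values reflect only how far these samples scatter, and that scatter may be technical. Values are log2 RMA values, so a difference of 1 is a doubling, and differences are light-damaged minus dark-adapted.

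Sterol synthesis starts with the condensation that makes HMG-CoA and goes through mevalonate to the isoprenoid units. Idi1 interconverts these units and Fdps assembles them into farnesyl diphosphate. The route then goes through squalene and lanosterol to cholesterol. When sterols in the membrane of the endoplasmic reticulum are scarce, the escort protein SCAP carries SREBP precursors to the Golgi, where proteases free their transcription factor part, and the genes of the whole route are switched on together. When sterols are plentiful, INSIG proteins hold the SCAP and SREBP complex back, and since Insig1 is itself an SREBP target its transcript is widely used as a readout of this pathway. The RPE takes up cholesterol with shed outer segments and from the blood, and also makes its own.

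SREBPs bind sterol regulatory elements in promoters, usually beside CCAAT boxes, which bind NF-Y, and GC boxes, which bind Sp1. Promoters of 5 of the 8 genes, each from 250 bases before to 50 after the transcription start, were matched by symbol in RefSeq (GRCm38.p6). The letters searched on both strands were TCACNCCAC for a sterol regulatory element core, CCAAT for the NF-Y site, GGGCGG for the GC box and CANNTG for the E-box. All 5 promoters, those of Hmgcs1, Idi1, Lss, Cyp51 and Insig1, held at least 1 CCAAT and at least 1 GGGCGG, which are found in 37.4% and 35.7% of 32851 mouse promoters of this length. TCACNCCAC was found in 1 of the 5, that of Hmgcs1, and in 1.24% of all promoters. Only this form was searched, and only in this window, so a miss does not show that a gene lacks an element. CANNTG, which overlaps a CCAAT box in Hmgcs1, was found in 4 of the 5 and in 72.3% of all promoters. Of these 5, Idi1 is shown as the member with the smallest p, and Hmgcs1, picked after the search, because it holds the sterol regulatory element core. Both lie on the plus strand, Hmgcs1 at chr13:119690101-119690400 and Idi1 at chr13:8885356-8885655, and capitals mark the matches of the first 3 motifs on either strand.
Hmgcs1: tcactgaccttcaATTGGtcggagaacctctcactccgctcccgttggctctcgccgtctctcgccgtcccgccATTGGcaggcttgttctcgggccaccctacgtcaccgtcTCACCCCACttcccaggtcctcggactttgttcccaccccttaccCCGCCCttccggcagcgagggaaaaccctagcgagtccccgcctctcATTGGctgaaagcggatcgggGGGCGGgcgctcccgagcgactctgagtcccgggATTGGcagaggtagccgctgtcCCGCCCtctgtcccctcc
Idi1: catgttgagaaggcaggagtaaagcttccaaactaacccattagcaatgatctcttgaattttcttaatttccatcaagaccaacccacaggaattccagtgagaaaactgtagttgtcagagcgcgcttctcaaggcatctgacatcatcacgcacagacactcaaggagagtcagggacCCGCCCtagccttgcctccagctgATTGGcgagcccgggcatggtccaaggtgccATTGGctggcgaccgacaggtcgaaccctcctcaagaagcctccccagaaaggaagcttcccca

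None of the 8 genes passed the test at 24 h after the light. In the limma fit that pairs arrays by replicate number (the block), 0 of 8 passed at an adjusted p under 0.05 in either direction, where 4.99% of all genes were called, 3.07% higher and 1.92% lower. Without the block limma also called 0 of 8, against 0.0495% of all genes. At an unadjusted p under 0.05 there were 3 of the 8 with the block, Fdft1 and Idi1 lower and Lss higher, and 19.0% of all genes. Differences were small: 7 of the 8 were below 0, with a median of -0.23, beside a median of 0 over all genes. The lowest end of any of the 8 intervals (95%, from the fit with the block, each taken alone) was -0.78, that of Fdft1, and the highest end was 0.48, that of Lss, which correspond to 0.581-fold and 1.39-fold.

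**Figure D1:**
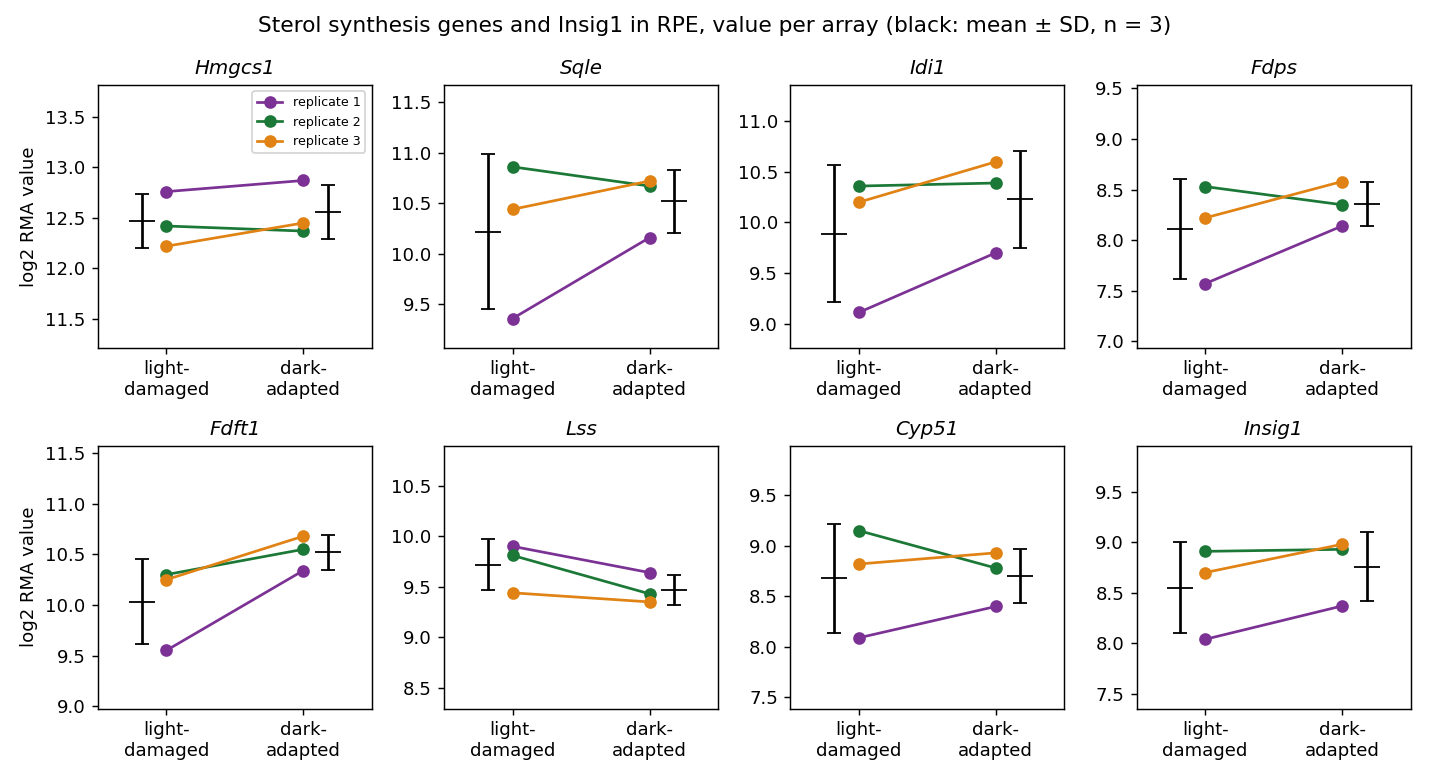
Log2 RMA value (vertical axis, a span of the same height in each panel) of the 8 genes in the 3 light-damaged (left) and 3 dark-adapted (right) arrays, with lines joining arrays of the same replicate number and black bars for the mean ± SD. For Sqle, Idi1, Fdps, Fdft1, Cyp51 and Insig1 the replicate 1 arrays lie lowest in their group, and in Hmgcs1 and Lss they lie highest.

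The first steps were as follows. Hmgcs1, the cytosolic enzyme that makes HMG-CoA, had 12.76, 12.42 and 12.22 in light-damaged replicates 1, 2 and 3, against 12.87, 12.37 and 12.45 in dark-adapted replicates 1, 2 and 3. The groups overlapped, replicate 1 was the highest array of each, and the difference of -0.10 ± 0.10 (SE) did not pass (limma adjusted p = 0.68). Idi1, which interconverts the isoprenoid units, had 9.11, 10.36 and 10.20 in light-damaged RPE, against 9.70, 10.39 and 10.60 in dark-adapted RPE in the same order. It was lower with light in 3 of 3 pairs, by 0.03 in pair 2 and by more in the others, and the difference was -0.34 ± 0.12 (limma adjusted p = 0.20). Fdps, which builds farnesyl diphosphate, the branch point to sterols and to prenylated proteins, had 7.57, 8.53 and 8.22 in light-damaged RPE, against 8.14, 8.35 and 8.58 in dark-adapted RPE. Light-damaged replicate 1 was the lowest array, while light-damaged replicate 2 lay above its partner, and the difference was -0.25 ± 0.15 (limma adjusted p = 0.45).

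Of the enzymes that commit farnesyl diphosphate to sterols, Fdft1, squalene synthase, came nearest to a call. It had 9.55, 10.30 and 10.25 in light-damaged RPE, against 10.34, 10.55 and 10.68 in dark-adapted RPE. The groups did not overlap, which held for 1 of the 8 genes and for 10.3% of all genes, and light-damaged replicate 1 was far below the rest. The difference was -0.49 ± 0.12, or 0.712-fold (95% interval 0.581 to 0.873), with a limma adjusted p of 0.084. Sqle, the squalene epoxidase and a rate-limiting step of the route, had 9.36, 10.86 and 10.44 in light-damaged RPE, against 10.16, 10.67 and 10.72 in dark-adapted RPE. Its highest and its lowest value were both from light-damaged mice, and the difference of -0.30 ± 0.18 did not pass (limma adjusted p = 0.45).

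The sterol ring is closed by Lss, lanosterol synthase, which had 9.90, 9.81 and 9.44 in light-damaged RPE, against 9.64, 9.43 and 9.35 in dark-adapted RPE. It was the 1 gene of the 8 with a difference above 0, at 0.24 ± 0.10, and was higher with light in 3 of 3 pairs, but the groups overlapped and it did not pass (limma adjusted p = 0.24). Cyp51, which demethylates lanosterol, had 8.09, 9.15 and 8.82 in light-damaged RPE, against 8.40, 8.78 and 8.93 in dark-adapted RPE. Its difference was -0.02 ± 0.14 (limma adjusted p = 0.97), with pair 2 at 0.37 and pair 1 at -0.31. Insig1, the feedback sensor, had 8.04, 8.91 and 8.70 in light-damaged RPE, against 8.37, 8.93 and 8.98 in dark-adapted RPE. It was lower with light in 3 of 3 pairs, by 0.02 in pair 2, and its difference of -0.21 ± 0.10 did not pass (limma adjusted p = 0.34). The 95% interval for Insig1 ran from 0.733-fold to 1.02-fold.

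The 3 pairs differed from each other. In pair 1, 7 of the 8 genes were lower in the light-damaged array, with a median of -0.45, in pair 3 also 7, with a median of -0.28, and in pair 2 only 3, with a median of 0.12. Over all genes the pair medians were 0, -0.02 and 0.02 for pairs 1, 2 and 3. Lower in 3 of 3 pairs were Fdft1, Idi1 and Insig1, 3 of 8, where 20.7% of all genes were, and higher in 3 of 3 was Lss, 1 of 8, where 19.9% of all genes were. Without both replicate 1 arrays the median of the 8 was -0.09, without replicate 2 it was -0.38 and without replicate 3 it was -0.18, and 0 of 8 were called in each case.

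In these genes the replicate 1 arrays differed from the rest by more than the groups differed. The mean of the replicate 1 arrays minus that of the other 4 was larger in size than the difference by light in 8 of 8 genes, reaching -0.99 for Idi1, -0.91 for Sqle, and -0.67 for both Cyp51 and Insig1. For Hmgcs1 it was 0.45 and for Lss 0.26, in the opposite direction. The margin was small for Fdft1, at -0.50 against -0.49 by light, and for Lss, whose difference by light was 0.24. The same count was not made over all genes, so it is not shown to be particular to the 8. The replicate 1 arrays also stood apart in RNA quality controls: the Gapdh 3′ minus 5′ control difference was 2.45 to 2.48 there and 1.54 to 1.80 in the others, and the mean of the 18S controls was 10.72 to 11.38 there and 12.98 to 13.30 in the others. Their part in the values of the 8 genes was not tested.

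**Figure D2:**
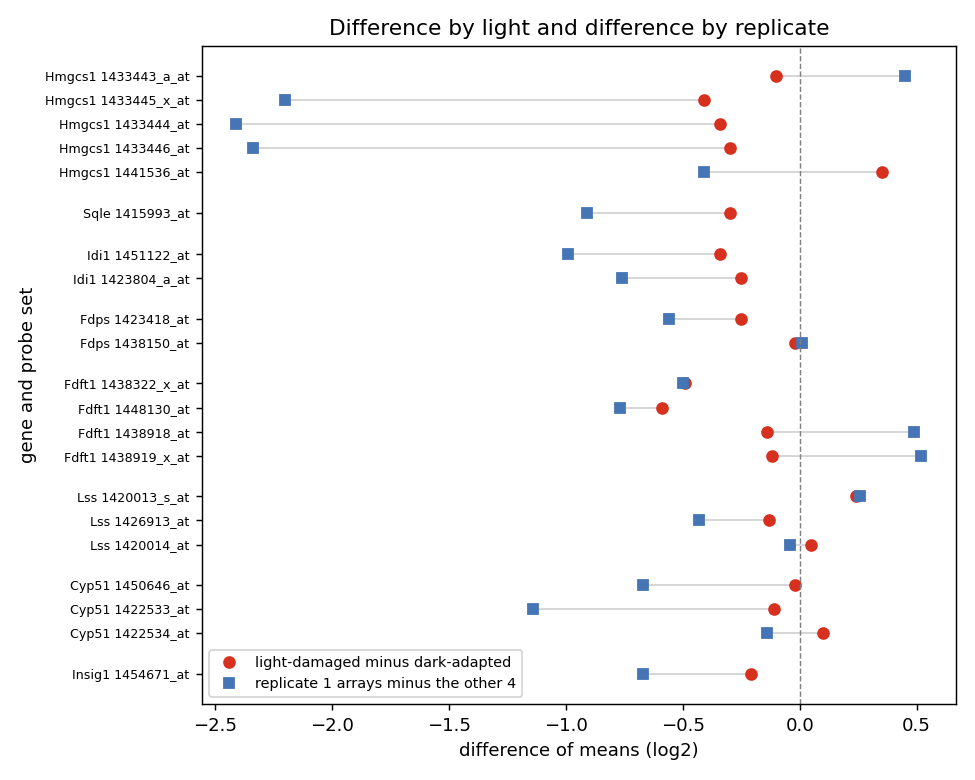
For each of the 21 probe sets of the 8 genes, the difference by light (circles, light-damaged minus dark-adapted) and the difference by replicate (squares, mean of the replicate 1 arrays minus mean of the other 4), both on the log2 scale. The squares lie farther from 0 in 19 of 21, the farthest being -2.41 for a probe set of Hmgcs1.

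The 13 probe sets not chosen gave a check, with 10 below 0 and 3 above. Some were dim, with means under the array medians of 7.43 to 7.48, so their signs carry little weight. These were 1438150_at of Fdps (4.42), 1422534_at of Cyp51 (5.57) and 1420014_at of Lss (6.80). The others were 1441536_at of Hmgcs1 (6.90) and 1438918_at and 1438919_x_at of Fdft1 (6.80 and 6.67). Fitting all 34945 probe sets together called 1 of the 21, where 3.77% of all were called: another probe set of Fdft1 (1448130_at). It had 8.86, 9.88 and 9.73 in light-damaged RPE, against 9.68, 10.29 and 10.27 in dark-adapted RPE, a difference of -0.59 ± 0.11 (limma adjusted p = 0.035). In that fit the chosen probe set of Fdft1, an x_at set whose probes can bind related transcripts, had -0.49 and an adjusted p of 0.086, and the remaining ones (1438918_at and 1438919_x_at) had -0.14 and -0.12. The call of Fdft1 therefore differed between its probe sets, while all 4, the dim ones included, had a difference below 0.

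For Lss and Hmgcs1 the probe sets differed in sign. The chosen probe set of Lss is an s_at set, which can also bind related transcripts, and 1426913_at had -0.13 ± 0.09, lower with light in 3 of 3 pairs, where the chosen one was higher in 3 of 3. A further one, 1420014_at, had 0.05. So the direction of Lss rested on the probe set. For Hmgcs1, 3 probe sets (1433445_x_at, 1433444_at and 1433446_at) had -0.41, -0.34 and -0.30, none called, and in these the replicate 1 arrays differed from the others by -2.20, -2.41 and -2.34, whereas in the chosen a_at set they lay above. The last of Hmgcs1, 1441536_at, had 0.35 and was higher with light in 3 of 3 pairs, with a limma adjusted p of 0.10 over all probe sets. Idi1 had -0.25 in its second probe set, near the -0.34 of the first. The second probe set of Fdps stayed between 4.37 and 4.46 on all arrays with a difference of -0.02, and the 2 others of Cyp51 had -0.11 and 0.10. Sqle and Insig1 had 1 probe set each.

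**Figure D3:**
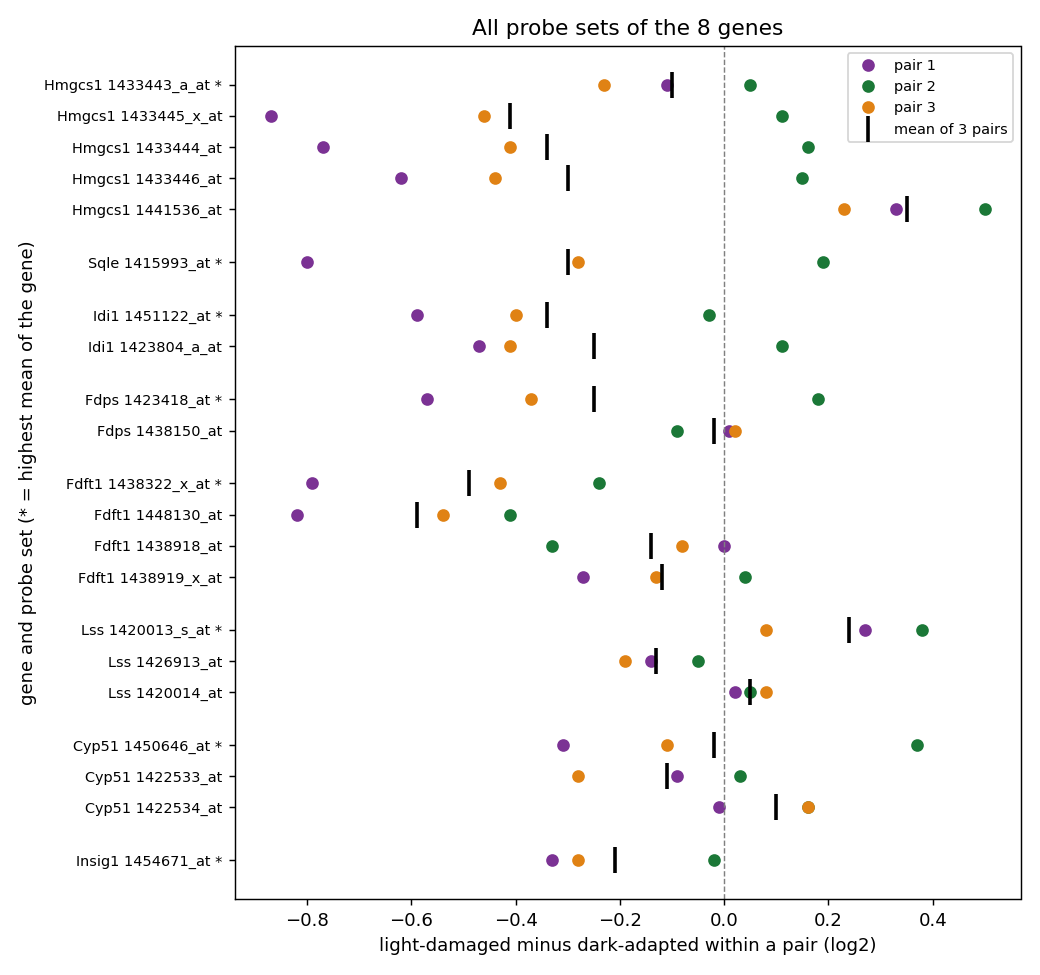
Within-pair differences (light-damaged minus dark-adapted, log2) of all 21 probe sets of the 8 genes, coloured by pair, with the mean of the 3 pairs as a black bar and the chosen probe set of each gene starred. For most probe sets pair 1 lies leftmost and pair 2 rightmost, and the probe sets of Fdft1 differ in size while those of Lss and Hmgcs1 lie on both sides of 0.

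Other genes of the pathway were taken from 5 lists of 54 genes, of which 47 were measured and the rest are not analysed here. By the same fit 1 of the 47 rose, where 3.07% of all genes were called higher, and 1 fell, where 1.92% were called lower, so these counts lie near the share over all genes. Of 12 further sterol enzymes none passed, and their median difference was -0.07. The largest difference below 0 was that of Msmo1, a methyl sterol oxidase that acts downstream of Cyp51, which had 8.92, 11.13 and 10.84 in light-damaged RPE, against 10.20, 11.19 and 11.58 in dark-adapted RPE. Its difference of -0.70 ± 0.21 (limma adjusted p = 0.14) was carried by pairs 1 and 3, at -1.28 and -0.75, with pair 2 at -0.06. Msmo1 passed without replicate 2, at -1.02 (limma adjusted p = 0.010), and with array weights, at -0.63 (limma adjusted p = 0.042). It did not pass without replicate 1, at -0.41 (limma adjusted p = 0.21), without replicate 3, at -0.67 (limma adjusted p = 0.35), or as the mean of its probe sets, at -0.26 (limma adjusted p = 0.34). Mvd, mevalonate diphosphate decarboxylase, measured by an s_at set, had -0.26 ± 0.09 with groups that did not overlap (limma adjusted p = 0.18). Pmvk, phosphomevalonate kinase, and Ebp, a sterol isomerase, lay the other way, at 0.46 ± 0.15 and 0.38 ± 0.14 (limma adjusted p = 0.16 and 0.20). Without replicate 1 both were called higher, Pmvk at 0.67 and Ebp at 0.58, in a setting that called 1245 of all genes. No enzyme of this list was called lower without replicate 1. Array weights called 1875 of all genes. In that setting Pmvk and Ebp were called higher, at 0.63 and 0.51 (limma adjusted p = 0.013 and 0.019). Mvd, at -0.30 (limma adjusted p = 0.048), was then called lower beside Msmo1. In the main fit 7 of the 12 lay below 0 and 5 above, so with none called no direction is established.

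Of 7 genes of the machinery that governs the pathway none passed, with 6 below 0 and a median of -0.12. Scap, the escort of the SREBP precursors, had 10.56, 11.05 and 11.16 in light-damaged RPE, against 11.21, 11.36 and 11.60 in dark-adapted RPE. The groups did not overlap, and the difference of -0.47 ± 0.10 did not pass (limma adjusted p = 0.054). Scap passed with array weights, at -0.43 (limma adjusted p = 0.016), and with quantile normalization, also at -0.43 (limma adjusted p just under 0.05). It did not pass as the mean of its probe sets, at -0.30 (limma adjusted p = 0.079), or without the block (limma adjusted p = 0.88). Nor did Scap pass without replicate 1, 2 or 3 (limma adjusted p = 0.071, 0.066 and 0.24). The precursors themselves differed little, with -0.12 ± 0.11 for Srebf1 and -0.05 ± 0.12 for Srebf2, 95% intervals of -0.37 to 0.14 and -0.34 to 0.23. Insig2, the second INSIG gene, had -0.25 ± 0.15, and Mbtps2, the protease of the second SREBP cut, had -0.41 ± 0.18, with -0.97 in pair 1, 0.01 in pair 2 and -0.28 in pair 3. Of 6 genes of sterol uptake and transport none passed either. Scarb1, a receptor for high-density lipoprotein measured by an x_at set, had the smallest p, at -0.37 ± 0.12 (limma adjusted p = 0.14). Tmem97, Npc2 and Mylip had -0.18, -0.13 and 0.10.

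Of 13 genes of fatty acid synthesis, many of them SREBP targets as well, 1 fell and none rose, with a median of -0.31 and 9 below 0. The gene that fell was Me1, the cytosolic malic enzyme that supplies NADPH. It had 9.70, 10.45 and 10.78 in light-damaged RPE, against 10.61, 10.97 and 11.19 in dark-adapted RPE, so the groups overlapped but every pair was lower, and the difference was -0.61 ± 0.12 (limma adjusted p = 0.040). Its adjusted p was 0.056 without replicate 2, 0.096 without replicate 3 and 1 without the block.

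Of 9 genes of sterol efflux, esterification and oxysterols, 1 passed, in the upward direction, and the median difference was 0.01. The gene that rose was Ch25h, a cholesterol hydroxylase of activated myeloid cells whose oxysterol product binds INSIG proteins and holds SREBPs back. It had 8.17, 10.18 and 9.58 in light-damaged RPE, against 7.42, 7.85 and 8.06 in dark-adapted RPE. All light-damaged arrays lay above all dark-adapted ones, replicate 1 was lowest in both groups, and the difference was 1.53 ± 0.27, or 2.89-fold (95% interval 1.86 to 4.50, limma adjusted p = 0.030). Without replicate 3 the difference was 1.54 with an adjusted p of 0.089, and without the block the adjusted p was 0.64. Of 15 macrophage and microglia markers, 14 rose, where 3.07% of all genes were called higher. The mean of these markers was 10.40 to 10.66 in light-damaged arrays and 9.47 to 9.78 in dark-adapted arrays. Their mean was highest in replicate 1 of each group, at 10.66 and 9.78, where Ch25h was lowest. Some single markers, such as Ptprc and Aif1, were lowest in replicate 1 as well. The part of these markers in the Ch25h difference was not tested.

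**Figure D4:**
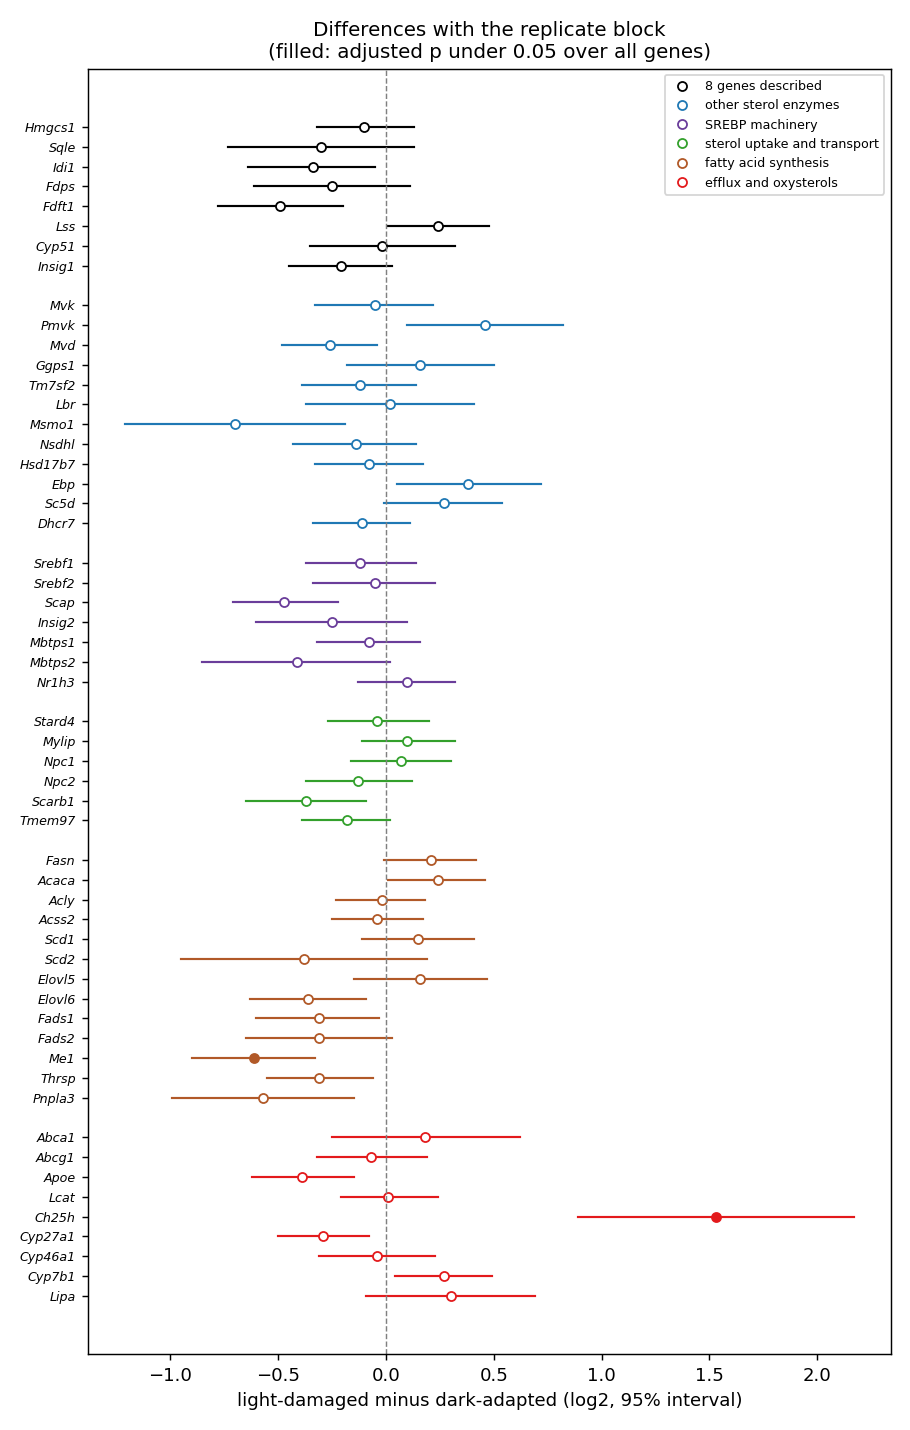
Difference between light-damaged and dark-adapted RPE (log2, points, with 95% intervals as lines) for the 8 genes and the 47 other pathway genes measured, grouped by list, filled where the adjusted p over all genes was under 0.05. Only Me1, at -0.61, and Ch25h, at 1.53, are filled, and the 8 genes lie between -0.49 and 0.24.

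Markers of the tissue moved too. For the counts given here, 3.07% of all genes were called higher and 1.92% lower. Of all 18193 genes, 9106 had a difference below 0. The samples held RPE transcripts at high levels, with Rpe65 at 13.10 to 14.21 in light-damaged and 14.14 to 14.59 in dark-adapted arrays. Photoreceptor transcripts were also present, with Gnat1 at 14.01 to 14.51 in light-damaged and 14.31 to 14.66 in dark-adapted arrays. The mean of 16 RPE markers was 12.24 to 12.63 in light-damaged arrays and 12.80 to 13.07 in dark-adapted arrays, with 16 of 16 differences below 0, a median of -0.39 and 3 markers called lower. That of 14 photoreceptor markers was 11.02 to 11.68 in light-damaged arrays and 11.60 to 12.20 in dark-adapted arrays, with 14 of 14 below 0 and 7 called lower. For 10 Müller glia markers, of which 2 rose, the groups overlapped, with means of 10.86 to 11.36 in light-damaged and 10.85 to 11.19 in dark-adapted arrays, as they did for 8 endothelial markers, of which 1 rose (7.49 to 7.84, against 7.45 to 7.57 in dark-adapted arrays). Of 9 pericyte and fibroblast markers 3 rose, and their means were 10.62 to 10.95 in light-damaged and 10.32 to 10.56 in dark-adapted arrays. In such bulk samples fewer cells of a type and less RNA per cell cannot be told apart, and the part of these shifts in the differences of the 8 genes was not tested.

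By likeness over the 6 arrays, the 5 genes outside all lists whose values followed the mean of the 8 genes most closely were Rasl11b, Slc15a2, Sfrp1, Tns1 and Mpp6, with Pearson r of 0.994, 0.989, 0.988, 0.988 and 0.987. The replicate 1 arrays, which stand apart, weigh heavily in such a value. Over the 4 other arrays r was 0.97, 0.91, 0.93, 0.93 and 0.89 in the same order. None of the 5 passed the test, their differences lying between -0.34 and -0.17. The mean did not stand for all 8 genes. Over the 6 arrays its r was -0.61 with Hmgcs1 and -0.58 with Lss, against 0.90 or more with the others.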

How the data were processed

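The deposited table holds log2 RMA values of 45101 probe sets on 6 Affymetrix arrays. The values come from RMA per the submitters' processing notes, a method that subtracts background, makes arrays comparable and condenses probes into probe sets. That the scale is log2 was read from the deposited values, whose array medians were 7.43 to 7.48. The values carry no detection calls. The platform annotation gave 1 gene symbol to 34945 probe sets, and 64 are controls.

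Tests used lmFit and eBayes of limma 3.58.1 (R 4.3.3), two-sided, across 18193 genes, with Benjamini-Hochberg adjustment over all of them and the replicate number as a block, which left 2 residual degrees of freedom. The labels give the same replicate numbers in both groups without saying what a number stands for. After group means were removed, arrays sharing a number correlated across genes (r of 0.89, 0.62 and 0.86, all over the bound of 0.1). They were treated as pairs, but these values cannot show that the numbers mark true pairs. Both replicate 1 arrays stand apart, and deviations from a group mean balance out within the group. The remaining arrays can therefore correlate however they are matched, and arrays of unlike number were not compared. The fit was tested on simulated data.

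The 8 genes, the other lists and the choice of the block were made with earlier results of these data known. Named by rule were all 8 genes, called pathway genes or else the 4 with the smallest p of a list, the main regulators and the 5 genes of most similar pattern. Other names were chosen after values were seen. The 3 members without a promoter entry were Sqle, Fdps and Fdft1. Alternatives covered the block, left-out pairs, normalization, a pseudocount of 16, leaving out dim genes, probe set choice, eBayes settings and array weights.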

Additional observations from a re-analysis of the deposited data

How the results depend on the processing

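None of the 8 genes was called in 11 of 14 alternatives, which included leaving out each pair, quantile normalization and the fit with no replicate block (0 of 8). The other 3 called 1 gene of the 8, Fdft1: with array weights (-0.43, limma adjusted p = 0.027), with probe sets other than s_at and x_at (-0.59, adjusted p = 0.036) and with all probe sets fitted together. The median difference stayed below 0 in all 14, between -0.38 and -0.09. It was taken without Fdps where dim genes were left out, and over the 21 probe sets where all were fitted together. The 6 genes Hmgcs1, Sqle, Idi1, Fdps, Fdft1 and Insig1 kept the sign of their difference in every alternative that gave them 1 value per gene. With all probe sets fitted together, 1 probe set of Hmgcs1 (1441536_at) lay above 0, at 0.35. The sizes moved as pairs were left out. Without replicate 1 Sqle was -0.05, Fdps -0.09, Idi1 -0.22 and Fdft1 -0.34, without replicate 2 Sqle was -0.54, Fdps -0.47 and Hmgcs1 -0.17, and without replicate 3 Hmgcs1 was -0.03. Lss turned to -0.13 with probe sets other than s_at and x_at. Cyp51, near 0, lay between -0.21 and 0.13 as pairs were left out, and was 0.13 with neither block nor replicate 1 arrays. In the other pathway lists, called higher against lower were 4 and 8 genes with array weights, 0 and 0 with no replicate block, 3 and 1 with neither block nor replicate 1 arrays, and 1 and 2 with quantile normalization, against 1 and 1. Leaving out a pair gave 0 to 4 higher and 0 to 3 lower. Without replicate 1 the 4 were Ch25h, Pmvk, Ebp and Abca1, and the 3 were Me1, Pnpla3 and Scarb1. Over all genes 908 were called, 1875 with array weights, 9 with no replicate block and 228 to 1245 as pairs were left out. The cause of these changes was not tested. With the block, an array without its partner adds nothing to the difference, so leaving out 1 array equals leaving out its pair, and 1 residual degree of freedom is then left. The number of arrays, 3 a group, limits the precision of every difference.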
